A study of Mus musculus with 8 samples.

Results

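The genes of the cytosolic ribosomal proteins were taken by their symbols: Rpl or Rps followed by a number with an optional letter or a suffix of l or l1 (Rps3a1 included), plus Rplp0, Rplp1, Rplp2 and Rpsa, protein-coding in RefSeq. The rule gave 85 genes, of which 84 had a row in the expression files (Rpl32l had none), 52 for the large and 32 for the small subunit, out of 45706 genes in all. Kinases of ribosomal protein S6 and names that mark pseudogenes were left out. The rule itself reads symbols only, and the group was picked for description with earlier results of these data known. The cells were LSK cells (lineage-negative, Sca1-positive and Kit-positive blood stem and progenitor cells) sorted from bone marrow of C57BL/6 mice. RNA and open chromatin (ATAC-seq, in which a transposase cuts accessible DNA) were measured in cells labelled as a conditional knockout of Hira, a chaperone that deposits histone H3.3, and in cells labelled wild type (WT). Each assay had 2 labelled Hira KO and 2 labelled WT libraries. The labels used here give neither the Cre driver of the knockout, nor ages, nor whether the 2 libraries of a group came from separate mice, so p-values measure the spread between these libraries, which may be technical.

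The sample titles go against other parts of the deposit. Hira itself, the targeted gene, had 24.4 and 23.3 CPM (counts per library total, rescaled) in the labelled Hira KO libraries, against 16.5 and 17.2 CPM in the labelled WT libraries. The log2 fold change was 0.50 (edgeR adjusted p = 0.180), and a gene-level count may include reads outside the deleted exons. The deposited file names of both assays carry the opposite genotype to the titles. Groups are therefore named by their titles throughout, as labelled Hira KO and labelled WT, and every direction below depends on those titles. The RNA libraries held 16595000 to 19846000 expected counts. Mitochondrial genes took 42.9% and 53.1% of them in labelled Hira KO replicates 1 and 2, and 40.8% and 51.7% in labelled WT replicates 1 and 2. This share was thus higher in replicate 2 of both groups. The LSK markers Kit and Ly6a were detected in every library, and Ly6a and the progenitor marker Flt3 were called higher in labelled Hira KO cells. Of 7 plasma cell and B cell markers 3 were called higher in labelled Hira KO cells (Igkc, Ighm and Jchain), while Cd79a had 19.4 and 8.74 TPM in labelled Hira KO cells against 37.9 and 23.2 TPM in labelled WT cells, and Mzb1 had 2.85 and 2.53 TPM in labelled Hira KO cells against 8.54 and 5.63 TPM in labelled WT cells, neither called. The summed level of the 7 was 8384 and 3667 TPM (a length-corrected share of all transcripts) in labelled Hira KO cells, against 951 and 694 TPM in labelled WT cells. Igkc and Ighm made up most of it in every library. The 11 erythroid markers, none of them called, summed to 613 and 220 TPM in labelled Hira KO cells and to 801 and 786 TPM in labelled WT cells. Most of each sum came from Car1 and Car2. Car1 had 348 and 40.2 TPM in labelled Hira KO cells and 463 and 502 TPM in labelled WT cells. Car2 had 167 and 108 TPM in labelled Hira KO cells and 153 and 139 TPM in labelled WT cells. The 9 lineage markers that the sort removes summed to 25.3 to 36.3 TPM in every library, with Cd4 called higher in labelled Hira KO cells. The 8 stromal and endothelial markers summed to 24.6 to 46.0 TPM, with Cdh5 called lower in labelled Hira KO cells and Col1a1 and Col3a1 each at 0 in 1 library. Most of this sum was Pecam1, with 30.8 and 21.2 TPM in labelled Hira KO cells and 36.0 and 21.1 TPM in labelled WT cells. The part of these cells in the results below was not tested, and in bulk RNA fewer cells of a type and less RNA per cell cannot be told apart.

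Each ribosome holds a single copy of nearly every ribosomal protein, and the genes for these proteins are among the most strongly transcribed in growing cells. Their mRNAs typically begin with a C followed by a tract of pyrimidines at the very 5′ end, the TOP motif, through which mTOR and the RNA-binding protein LARP1 control their translation. In blood formation they are known from Diamond-Blackfan anaemia and the 5q- syndrome, in which loss of a single allele of a ribosomal protein gene impairs red cell production.

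The pyrimidine tract was present at the annotated starts of many of these genes. RefSeq promoter windows on GRCm38.p6 were matched to 64 of the 84 genes and gave 76 starts. A C followed by at least 4 further C or T bases, beginning within 10 bases of the annotated start, was found at 41 of the 76 starts (53.9%), against 31.1% of 21263 protein-coding starts. With at least 6 further pyrimidines the shares were 39.5% and 12.5%, and with the tract beginning within 3 bases of the start they were 34.2% and 11.2%. The following 12 starts are shown because these genes recur in the results: the highest-expressed genes Rps27 and Rpl41, genes with the highest and lowest log2 fold changes, and Rps6, Rpl28 and Rpl38 as examples of the tract picked by eye. Each sequence runs 5′ to 3′ on the coding strand from 30 bases before the annotated start, which is the base after those 30, and capitals mark a tract that begins within 10 bases of the start.

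Rps6: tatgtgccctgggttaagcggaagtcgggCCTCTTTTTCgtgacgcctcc
Rpl28: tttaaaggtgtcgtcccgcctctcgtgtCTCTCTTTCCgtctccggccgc
Rps27: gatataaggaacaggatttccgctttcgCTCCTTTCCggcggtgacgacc
Rps15a: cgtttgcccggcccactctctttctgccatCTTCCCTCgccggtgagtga
Rpl38: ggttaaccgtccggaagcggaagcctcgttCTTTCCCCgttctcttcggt
Rps10: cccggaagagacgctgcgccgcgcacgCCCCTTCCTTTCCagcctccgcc
Rpl41: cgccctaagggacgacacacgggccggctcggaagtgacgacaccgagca
Rpl5: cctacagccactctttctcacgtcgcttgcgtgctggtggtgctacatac
Rpl37: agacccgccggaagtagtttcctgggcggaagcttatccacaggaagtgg
Rpl27: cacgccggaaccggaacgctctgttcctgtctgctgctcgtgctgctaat
Rps15: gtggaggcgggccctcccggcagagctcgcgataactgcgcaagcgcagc
Rpsa: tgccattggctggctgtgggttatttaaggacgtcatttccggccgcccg

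The first 6 begin their tract between 3 bases before the annotated start and the start itself, and the last 6 have none that begins within 10 bases of the start. They lie on the plus strand at chr7:4792935-4792984 (Rpl28), chr11:114668550-114668599 (Rpl38), chr5:107900498-107900547 (Rpl5), chr15:5116583-5116632 (Rpl37), chr11:101442215-101442264 (Rpl27), chr10:80292401-80292450 (Rps15) and chr9:120127736-120127785 (Rpsa). The others lie on the minus strand at chr4:86857348-86857397 (Rps6), chr3:90213629-90213678 (Rps27), chr7:118116128-118116177 (Rps15a), chr17:27635225-27635274 (Rps10) and chr10:128549149-128549198 (Rpl41). In the wider promoter window, 250 bases before to 50 after the start and on both strands, the ETS-type motif CCGGAAG was found at 35.5% of the ribosomal protein gene starts and at 11.6% of all protein-coding starts. The motif AAGATGGC, the core bound by YY1, was found at 10.5% and 3.05%. The GC box GGGCGG was found at 60.5% and 46.2%, the E-box CACGTG bound by Myc at 10.5% and 7.84%, and TATAAA at 9.21% and 12.6%. A match describes these letters only and is no evidence of binding.

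The ribosomal protein genes were expressed at high and widely different levels. The 80 genes that passed the low-count filter had mean levels between 8.03 and 2708 TPM with a median of 434 TPM. In all, 9 genes averaged at least 1000 TPM, 73 at least 100 TPM, and 37 were among the 100 highest nuclear genes. Rps27, a small subunit protein, stood highest, with 2643 and 3303 TPM in labelled Hira KO cells against 3056 and 1831 TPM in labelled WT cells. Rpl41, which encodes the smallest ribosomal protein, had 2521 and 1691 TPM in labelled Hira KO cells and 3036 and 2015 TPM in labelled WT cells. The groups overlapped for both genes. Rps25, Rps29, Rpl37a and Rps24 followed, with means of 1298 to 1544 TPM, and in TPM each of these 4 also overlapped between the groups. In CPM the groups did not overlap for Rps24, which was higher in labelled Hira KO cells (log2 fold change 0.27, edgeR adjusted p = 0.297). Rpsa, the laminin receptor homologue of the small subunit, averaged 730 TPM. Of the acidic stalk proteins, which recruit elongation factors, Rplp2 averaged 914 TPM, Rplp1 447 TPM and Rplp0 225 TPM. The lowest of the tested genes were Rpl7l1, a nucleolar relative of Rpl7 with a mean of 8.03 TPM, then Rpl12, Rpl5, Rpl27, Rps27l and Rps7, whose means lay between 28.7 and 58.3 TPM.

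**Figure D1:**
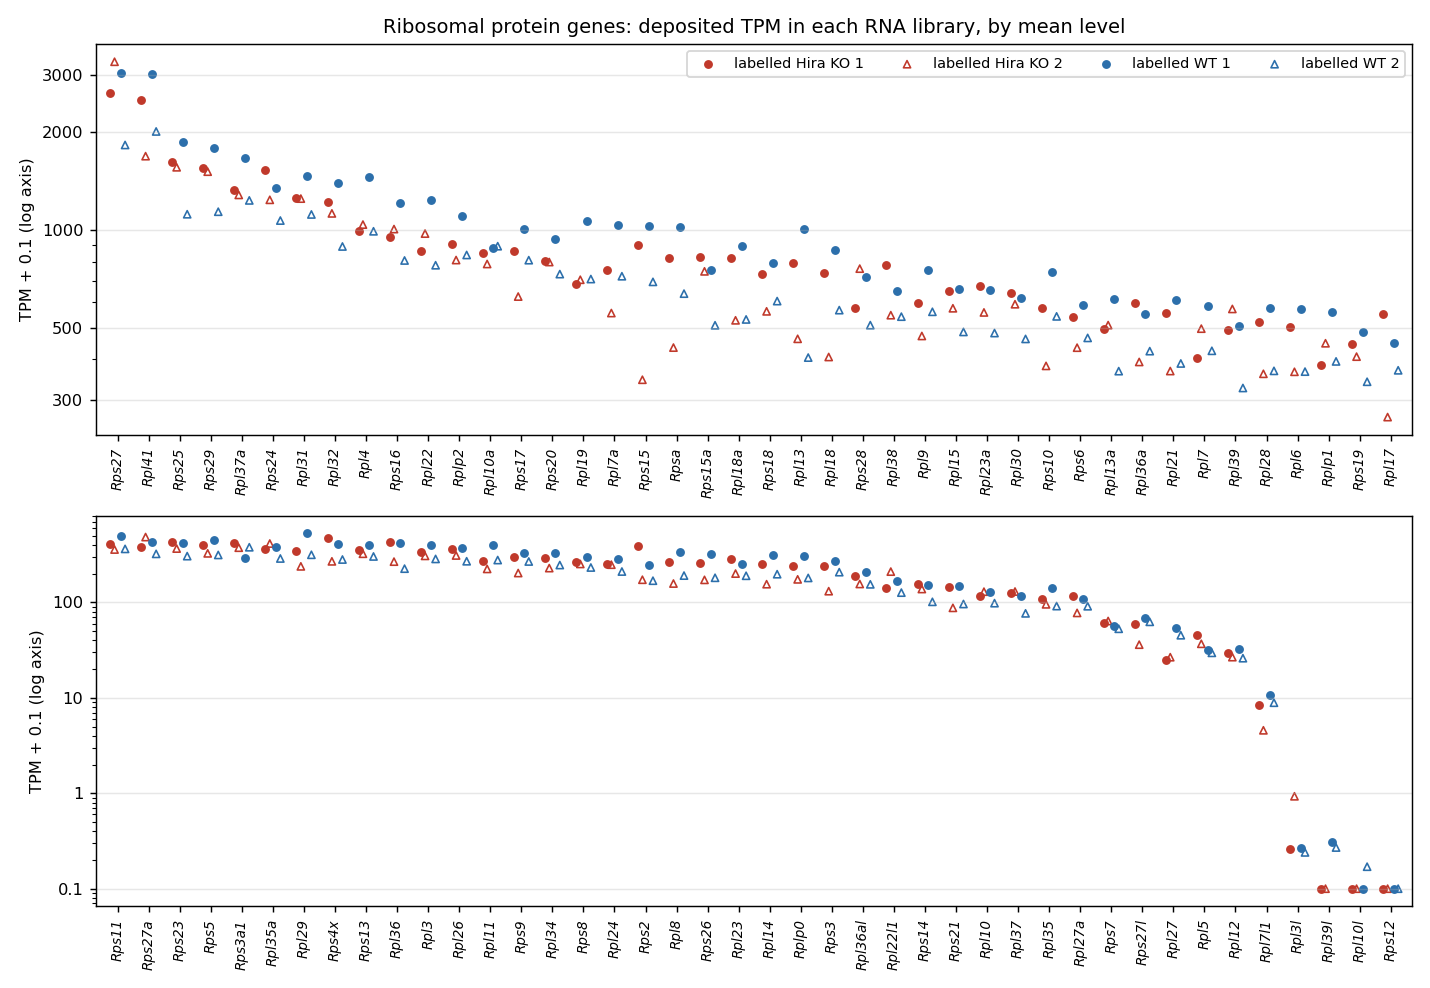
Deposited TPM of all 84 ribosomal protein genes in each of the 4 RNA libraries, on a log axis after adding 0.1 so that values of 0 can be drawn, ordered by mean level with the 42 higher genes above. Labelled Hira KO libraries are red and labelled WT libraries blue; Rps27 averages 2708 TPM, and Rpl3l, Rpl39l, Rpl10l and Rps12 stand at under 1 TPM in every library.

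Of the 84 genes 4 did not pass the filter. Rpl3l, Rpl10l and Rpl39l, paralogues known mainly from muscle or testis, stayed under 1 TPM in every library. Rpl3l had 2 and 12 expected counts in labelled Hira KO cells and 2 in each labelled WT library. Rpl39l and Rpl10l had 0 in both labelled Hira KO libraries and at most 1 in a labelled WT library. Rps12, a core small subunit gene, was listed at 0 in all 4 libraries, while its pseudogene copy Rps12-ps3 had 735 and 692 expected counts in labelled Hira KO cells and 670 and 496 in labelled WT cells. The parents of the 3 paralogues were expressed: Rpl3 averaged 332 TPM, Rpl39 475 TPM and Rpl10 119 TPM. The other paralogues were tested. Rpl22l1 had 38.6 and 69.5 CPM in labelled Hira KO cells against 40.2 and 38.8 CPM in labelled WT cells, and its parent Rpl22 averaged 966 TPM against 161 TPM for Rpl22l1. Rpl36al averaged 177 TPM beside 492 TPM for Rpl36a, Rpl7l1 8.03 TPM beside 478 TPM for Rpl7, and Rps27l, a p53 target in human cells, 56.8 TPM beside 2708 TPM for Rps27.

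Reads from these genes were shared with processed pseudogenes, which are near-copies of the mRNA. The files list 275 pseudogene copies of 59 of the genes, and 192 of the copies had counts. Summed over the 4 libraries, copies took more than 50% of the counts of a gene and its copies for 6 genes, under 5% for 62 of the 80 tested genes, and 92.1% for Rpl10, where Rpl10-ps3 had 15426 and 9004 expected counts in labelled Hira KO cells and 14294 and 13951 in labelled WT cells. Rpl10 itself had 1039 and 1356 expected counts in labelled Hira KO cells, against 1067 and 1035 in labelled WT cells. Rpl31, Rps23, Rps7, Rpl27 and Rps12 were the other 5. The values of these 6 genes, and the low levels of Rpl27 and Rps7, are uncertain to that extent, because the counting could assign a read to the gene or to its copy. Other genes were affected to a lesser extent, with copy shares of 49.3% for Rpl28, 38.9% for Rps2 and 30.8% for Rpl23a. Among genes outside the 6, adding copies before the fit changed the sign of the log2 fold change for Rpl15 (0.19 to -0.08) and Rps16 (0.11 to -0.08). It also did so for Rps13 (0.07 to -0.08) and Rpl28 (0.02 to -0.07).

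The share of the RNA held by the ribosomal protein genes as a whole differed between the groups by less than the spread between libraries. They held 9.04% and 8.86% of the nuclear TPM in labelled Hira KO cells (mean 8.95% ± 0.12, SD, n = 2), against 9.68% and 8.15% in labelled WT cells (8.92% ± 1.08, SD, n = 2). The labelled WT libraries lay on either side of the labelled Hira KO libraries. Large subunit genes held 5.11% and 4.88% in labelled Hira KO cells against 5.64% and 4.72% in labelled WT cells, again overlapping. Small subunit genes held 3.93% and 3.98% in labelled Hira KO cells and 4.05% and 3.43% in labelled WT cells, overlapping too. With 2 libraries a group, no exact test of a single value can go below p = 0.333.

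Gene by gene, none of the 80 tested ribosomal protein genes was called different between labelled Hira KO and labelled WT cells by edgeR's quasi-likelihood test at an adjusted p of 0.05 over all 16258 tested genes. Over all genes 292 were called (1.8%), 1.32% higher and 0.48% lower in labelled Hira KO cells. At an unadjusted p under 0.05 there were 6 ribosomal protein genes (7.5%), against 22.8% of all genes tested. The median log2 fold change of the 80 genes was 0.03, with quartiles of -0.14 and 0.24, against a median of 0.01 with quartiles of -0.36 and 0.48 over all genes. By subunit, the median was 0.01 for 49 large and 0.07 for 31 small subunit genes. The 95% interval of the fold change stayed within 2-fold in either direction for 72 of the 80 genes and within 1.5-fold for 43. Labelled Hira KO and labelled WT libraries did not overlap for 26 genes (32.5%), 15 of them higher and 11 lower in labelled Hira KO cells, where 56.1% of all genes did not overlap. The 2 labelled Hira KO libraries differed more from each other than the labelled WT libraries did, with a median absolute log2 difference per gene of 0.28 against 0.13. Leaving out a labelled Hira KO library changed the calls: without replicate 1, 18 ribosomal protein genes were called, 11 higher and 7 lower in the remaining labelled Hira KO library, beside 20.2% of all genes, and without replicate 2 there were 2, Rps2 higher and Rpl27 lower, beside 6.97%. In these fits the lone library is assumed to vary like the others.

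**Figure D2:**
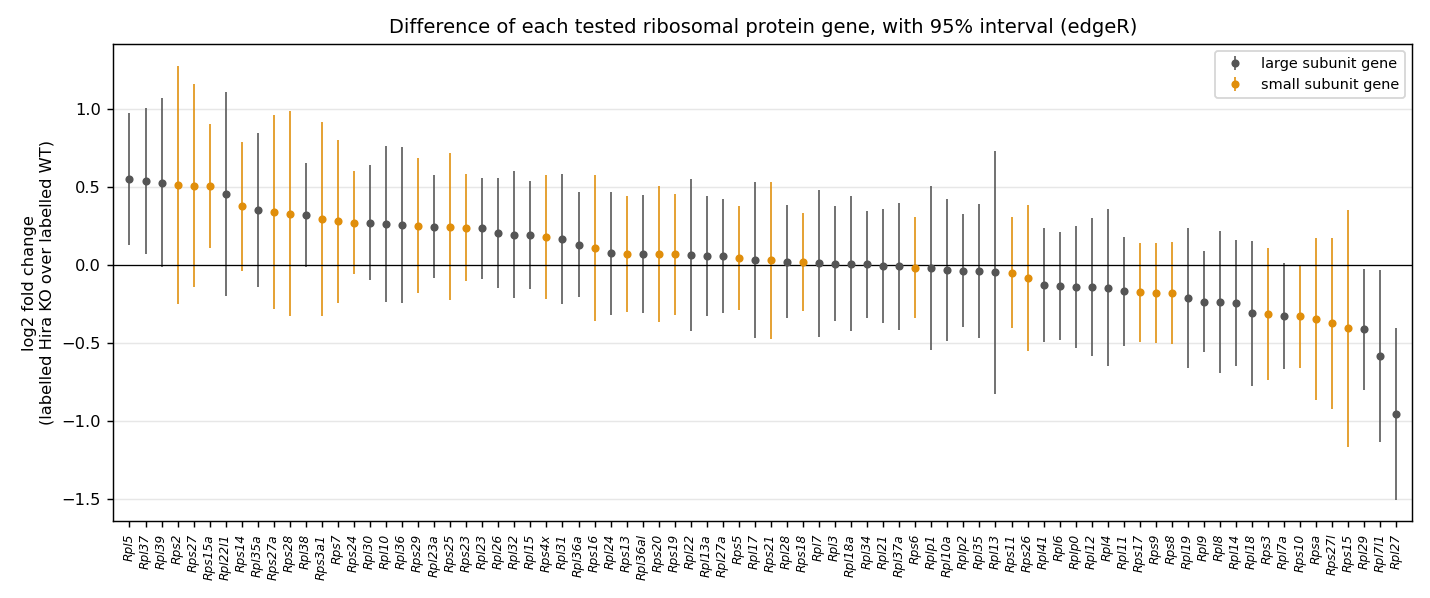
Log2 fold change (labelled Hira KO over labelled WT) of the 80 tested ribosomal protein genes, ordered from high to low, with 95% intervals from edgeR; large subunit genes are grey and small subunit genes orange. The values run from 0.55 for Rpl5 to -0.95 for Rpl27, and 72 of the intervals stay within -1 and 1.

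Rpl27, a large subunit protein, had the lowest fold change. It had 8.24 and 10.04 CPM in labelled Hira KO cells against 17.4 and 18 CPM in labelled WT cells (log2 fold change -0.95 ± 0.23 SE). The edgeR adjusted p was 0.077, the groups did not overlap, and Rpl27 was called lower by DESeq2 (adjusted p = 0.024) and without the low-count filter (adjusted p = 0.011), beside 9.72% and 7.48% of all genes called by those tests. Most reads of this sequence were counted at pseudogenes: copies of Rpl27 took 75.2% of the summed counts, led by Rpl27-ps3 with 742 and 806 expected counts in labelled Hira KO cells and 780 and 654 in labelled WT cells. Gene and copies together had 900 and 973 expected counts in labelled Hira KO cells and 1109 and 985 in labelled WT cells. With copies added to their gene before the fit, the log2 fold change was -0.10.

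The other low values were smaller. Rpl7l1 had 15.5 and 11.4 CPM in labelled Hira KO cells against 19.4 and 21.0 CPM in labelled WT cells (log2 fold change -0.58). Rpl29, a large subunit protein, had 139 and 129 CPM in labelled Hira KO cells against 200.1 and 157 CPM in labelled WT cells (log2 fold change -0.41). The groups did not overlap for either gene, and the edgeR adjusted p was 0.197 for Rpl7l1 and 0.191 for Rpl29. Rps15, a small subunit protein, had 205 and 107 CPM in labelled Hira KO cells and 221 and 193 CPM in labelled WT cells (log2 fold change -0.41, 95% interval -1.16 to 0.35). Rpsa had 1070 and 761 CPM in labelled Hira KO cells and 1283 and 1048 CPM in labelled WT cells (log2 fold change -0.35). Both genes were lowest in labelled Hira KO replicate 2 and overlapped between the groups. Rps27l, Rps10 and Rpl7a completed the lowest 8, with log2 fold changes of -0.38, -0.33 and -0.33, no overlap between the groups, and edgeR adjusted p-values of 0.377, 0.221 and 0.232.

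At the high end, Rpl5, which with Rpl11 and 5S rRNA binds the p53 inhibitor MDM2, had 34.2 and 39.5 CPM in labelled Hira KO cells against 24.1 and 26.3 CPM in labelled WT cells (log2 fold change 0.55 ± 0.18 SE). Its edgeR adjusted p was 0.135. Rpl37, a zinc-binding large subunit protein, had 64.8 and 90.3 CPM in labelled Hira KO cells against 57.7 and 49.3 CPM in labelled WT cells (log2 fold change 0.53, edgeR adjusted p = 0.174). Rpl39 had 155 and 243 CPM in labelled Hira KO cells and 150.3 and 126 CPM in labelled WT cells (log2 fold change 0.53). None of the 3 overlapped between the groups. Rps15a had 320.0 and 393 CPM in labelled Hira KO cells and 274 and 229 CPM in labelled WT cells (log2 fold change 0.50, edgeR adjusted p = 0.140), again without overlap. Rps27 had 306 and 517 CPM in labelled Hira KO cells and 327 and 252 CPM in labelled WT cells (log2 fold change 0.51), which overlapped. Rpl22l1 and Rps14, the gene lost in the 5q- syndrome, had log2 fold changes of 0.45 and 0.37. Rps2, a small subunit protein at the mRNA entry site, had 231 and 121 CPM in labelled Hira KO cells and 134 and 113 CPM in labelled WT cells (log2 fold change 0.51), set by labelled Hira KO replicate 1. Its copy Rps2-ps10 had 201 and 1127 expected counts in labelled Hira KO cells against 2650 and 1926 in labelled WT cells. With copies added, the log2 fold change of Rps2 was -0.30, so its direction depended on the division of reads.

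The 20 genes linked to Diamond-Blackfan anaemia or the 5q- syndrome were all tested. None was called, 13 had a log2 fold change above 0, and the median was 0.20 over a range of -0.95 (Rpl27) to 0.55 (Rpl5). Rps19, the gene most often mutated in patients with Diamond-Blackfan anaemia, had 125 and 160.5 CPM in labelled Hira KO cells and 140 and 133 CPM in labelled WT cells (log2 fold change 0.07, 95% interval -0.32 to 0.46). Rpl11 had 111 and 126.0 CPM in labelled Hira KO cells and 140 and 126 CPM in labelled WT cells (log2 fold change -0.17). Rps14 had 56.5 and 67.4 CPM in labelled Hira KO cells and 52.0 and 43.6 CPM in labelled WT cells (edgeR adjusted p = 0.256). The 2 groups overlapped for Rps19 and Rpl11 and not for Rps14. Of the 20 genes, 10 did not overlap between the groups, where 56.1% of all genes did not, and 18 had an interval within 2-fold.

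Genes that serve the ribosome but are no part of it had lower medians than its proteins. For 31 ribosome assembly genes the median was -0.51 on the log2 scale, with 29 below 0, where 49.1% of all genes were below 0. One of them, Bop1, a factor of large subunit maturation, was called lower, with 16.3 and 18.5 CPM in labelled Hira KO cells against 36.3 and 36.2 CPM in labelled WT cells (log2 fold change -1.06, edgeR adjusted p = 0.043). Nolc1 (log2 fold change -0.86, adjusted p = 0.052) and Gnl3 (-0.84, adjusted p = 0.055), both nucleolar, were next in the same edgeR test. The 29 initiation factors had a median of -0.31 with 23 below 0, and 1 was called. This was Eif3g, a subunit of eIF3, with 28.8 and 30.7 CPM in labelled Hira KO cells against 57.5 and 60.1 CPM in labelled WT cells (log2 fold change -0.98, edgeR adjusted p = 0.039). Over all tested genes 0.48% were called lower, beside 1 of the 31 assembly genes and 1 of the 29 initiation factors. The 78 mitochondrial ribosomal protein genes had a median of -0.41 with 66 below 0, none called, and at an unadjusted edgeR p under 0.05 there were 1 higher and 17 lower in labelled Hira KO cells, where 22.8% of all genes were at such a p. Without labelled WT replicate 1 or 2, the adjusted p was 0.399 and 0.357 for Eif3g and 0.418 and 0.359 for Bop1 in the same edgeR fit, and both calls were lost. These medians stand beside 0.03 for the cytosolic ribosomal protein genes, and the difference between the lists was not tested.

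No gene was called among those that share the TOP motif or control it. Of 19 TOP translation genes (elongation and initiation factors, Npm1 and others) none was called, the median was -0.18, and Npm1 had 759 and 699 CPM in labelled Hira KO cells and 996 and 1133 CPM in labelled WT cells (log2 fold change -0.55, edgeR adjusted p = 0.122). Of 16 regulators none was called and the median was -0.22. Larp1, which binds the TOP motif, had 202 and 205 CPM in labelled Hira KO cells and 328 and 302 CPM in labelled WT cells (log2 fold change -0.63, edgeR adjusted p = 0.065). Of 7 transcription factors of ribosomal protein genes none was called, the median was -0.19, and Myc had 305 and 287 CPM in labelled Hira KO cells against 447 and 367 CPM in labelled WT cells (log2 fold change -0.46, edgeR adjusted p = 0.145). In the other direction Gabpb1, a subunit of the ETS-type factor GABP, had 48.7 and 44.7 CPM in labelled Hira KO cells against 32.3 and 36.7 CPM in labelled WT cells (log2 fold change 0.44, edgeR adjusted p = 0.185). Of 8 genes of the p53 axis that free ribosomal proteins act on, 1 was called lower, beside 0.48% of all tested genes. This was Zmat3, a p53 target, with 13.8 and 10.5 CPM in labelled Hira KO cells against 33.3 and 39.3 CPM in labelled WT cells (log2 fold change -1.58, edgeR adjusted p = 0.034). The list median was -0.47, and the call of Zmat3 was lost without labelled WT replicate 1 or 2 (edgeR adjusted p = 0.297 and 0.287). Of the remaining lists, the 5 chaperones of ribosomal proteins had a median of -0.36 and the 7 snoRNA host genes -0.33. None of these genes was called.

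At the starts of the ribosomal protein genes open chromatin was found in both groups. A peak covered the annotated start in all 4 ATAC libraries for 61 of the 64 genes with a start in the promoter table (95.3%), against 50.5% of 17492 protein-coding genes, and in no library for the other 3. Those 3 were Rpl3l, Rpl10l and Rpl39l, the paralogues that also had almost no RNA. Open starts were as frequent in like sets of genes. Any peak within 1 kb of the start was present in each library for 61 of the 64 genes and for 69 of 69 mitochondrial ribosomal protein genes. Of 230 other genes of at least 100 TPM, 212 to 221 had one, depending on the library. Rps12, listed at 0 in the RNA, had a start peak in every library, with an authors' fold enrichment of 130 and 115 in labelled Hira KO cells and 117 and 83.7 in labelled WT cells. The median fold enrichment at the start was 59.4 and 52.5 in labelled Hira KO cells and 51.2 and 40 in labelled WT cells; these are the peak caller's values within each list and are not compared between lists. Rpl37 had the highest start peak on average and Rpl4, itself at 1123 TPM, the lowest of the 61. Within 1 kb of the start, peaks covered 56.7% and 49.4% of the bases in labelled Hira KO cells and 60.7% and 47.2% in labelled WT cells, so the groups overlapped. Cover there was lower in both labelled Hira KO libraries for 1 gene (background 5.94% of other protein-coding genes) and higher in both for 4 (background 7.01%).

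Away from the start the peak lists of the groups differed. Peaks of the 4 lists were merged into 112479 regions, and 567 of these lay in or within 10 kb of a ribosomal protein gene. Of the 567 regions, 5 (0.882%) were present in both labelled Hira KO libraries and absent from both labelled WT lists, against 5.64% of all regions, and 99 (17.5%) were present in both labelled WT libraries and absent from both labelled Hira KO lists, against 2.77% of all regions. At least 1 region of the first kind lay near 4 genes (4.76%), against 17.4% of other protein-coding genes, and at least 1 of the second kind near 50 genes (59.5%), against 12.4% of other protein-coding genes. Among 272 other genes of at least 100 TPM the second kind made up 7.79% of the regions and lay near 44.5% of the genes, and it lay near 41.4% of 29 initiation factor genes and 36.8% of 19 TOP translation genes. The peak lists overlapped in length, with 92839 and 73715 peaks over 47.1 and 36.2 Mb in labelled Hira KO cells and 79565 and 63422 peaks over 45.4 and 32.5 Mb in labelled WT cells, and the part of list length in these counts was not tested. Around the ribosomal protein genes peaks covered 245 and 209 kb in labelled Hira KO cells and 443 and 379 kb in labelled WT cells. With 1 library left out, regions of the first kind numbered 8 and 28 (without labelled Hira KO replicate 1 or 2) and 16 and 9 (without labelled WT replicate 1 or 2), and regions of the second kind 122, 112, 183 and 194 in the same order. The first kind was then 1.45%, 4.96%, 2.87% and 1.63% of the regions near ribosomal protein genes, beside 11.4%, 23.7%, 12.5% and 7.32% of all regions. The second kind was 22.1%, 19.9%, 32.8% and 35.1% of those near ribosomal protein genes, beside 6.29%, 4.73%, 5.39% and 11.8% of all regions. Where the strand of the gene was known, 54 of the 99 labelled WT regions lay past the gene end, 25 touched the gene body and 6 lay upstream. They had a median width of 532 bases and authors' fold enrichments with medians of 4.43 and 5.58, far below those of the start peaks. The zones used next, along the gene in the direction of transcription, were chosen after these regions had been seen.

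In the first 5 kb past the gene end, peaks covered 14.7% and 12.7% of the bases of 64 ribosomal protein genes in labelled Hira KO cells, against 44.9% and 43.8% in labelled WT cells. Cover was lower in both labelled Hira KO libraries than in both labelled WT libraries for 57 of the 64 genes (89.1%), against 6.8% of 16832 other protein-coding genes and 18.7% of the 6118 other genes with any peak there. It was higher in both labelled Hira KO libraries for 1 gene (1.56%), against 5.12% of the other genes. Other genes of at least 100 TPM showed lower cover in labelled Hira KO cells in 40.4% of 230 cases, with 13.2% and 10.9% of bases covered in labelled Hira KO cells against 23.8% and 20.3% in labelled WT cells. The 69 mitochondrial ribosomal protein genes did so in 10.1% of cases, with 7.03% and 6.21% covered in labelled Hira KO cells and 9.27% and 6.56% in labelled WT cells. At 1 kb past the end, a peak was present for 17 and 12 of the 64 ribosomal protein genes in labelled Hira KO cells and for 45 and 46 in labelled WT cells. The gap extended into the gene. In the gene body more than 1 kb past the start, peaks covered 5.30% and 4.09% in labelled Hira KO cells and 23.6% and 19.5% in labelled WT cells, lower in both labelled Hira KO libraries for 29 of 63 genes (46.0%), against 8.08% of other genes and 24.9% of 225 other genes of at least 100 TPM, and higher in both for 1, against 13.4%. From 5 to 10 kb past the end the values were 6.52% and 4.70% in labelled Hira KO cells and 8.67% and 6.62% in labelled WT cells, and upstream, from 10 to 1 kb before the start, 6.15% and 5.24% in labelled Hira KO cells and 7.75% and 5.54% in labelled WT cells. The groups overlapped upstream. From 5 to 10 kb past the end they did not, with 6.52% as the higher labelled Hira KO value and 6.62% as the lower labelled WT value. From 5 to 10 kb past the end 13 genes were lower in both labelled Hira KO libraries (background 4.62%, and 13.5% of the other genes of at least 100 TPM) and 1 was higher (background 5.32%), and upstream 11 were lower (background 6.35%) and 3 higher (background 8.26%). With 2 libraries a group, no exact test on these covers can go below p = 0.333, and the lists hold no reads from which depth could be matched.

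**Figure D3:**
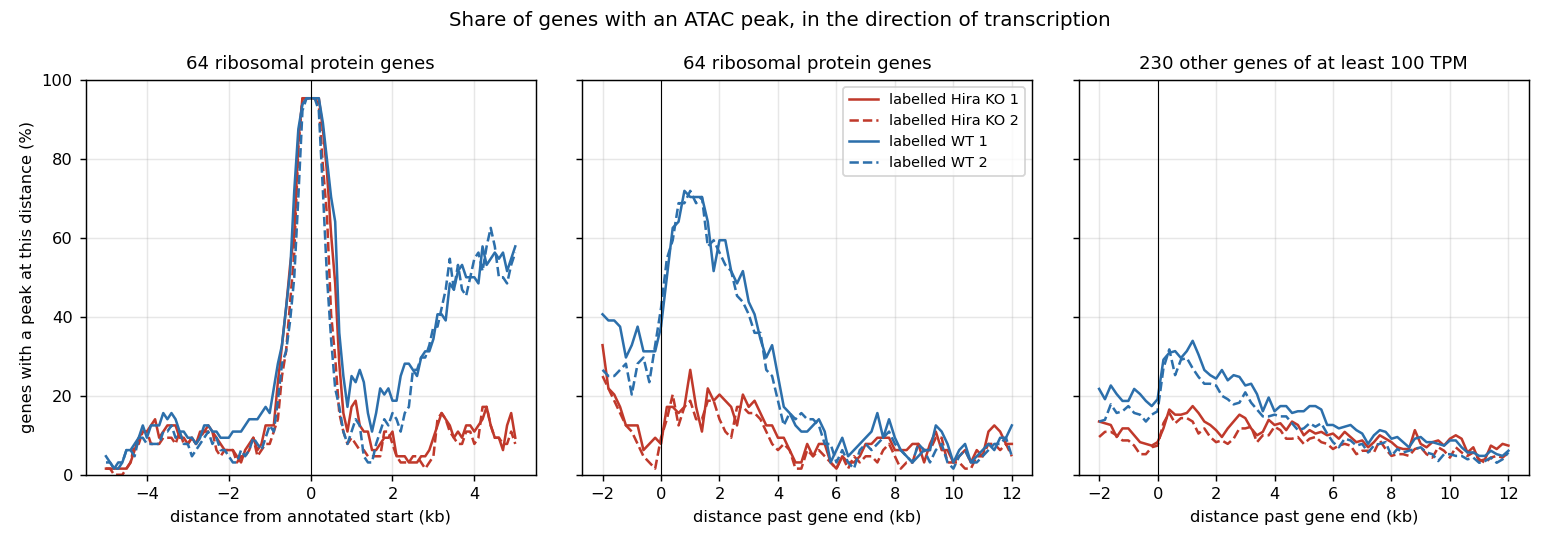
Share of genes (%) with an ATAC peak at each distance in kb, in the direction of transcription, for the 64 ribosomal protein genes around their annotated start (left) and past their gene end (middle), and for 230 other genes of at least 100 TPM past their gene end (right). Labelled Hira KO libraries are red and labelled WT libraries blue, solid for replicate 1 and dashed for replicate 2; at the start all 4 lines reach 61 of 64 genes, and 1 kb past the end they stand at 17 and 12 genes in labelled Hira KO cells and 45 and 46 in labelled WT cells.

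**Figure D4:**
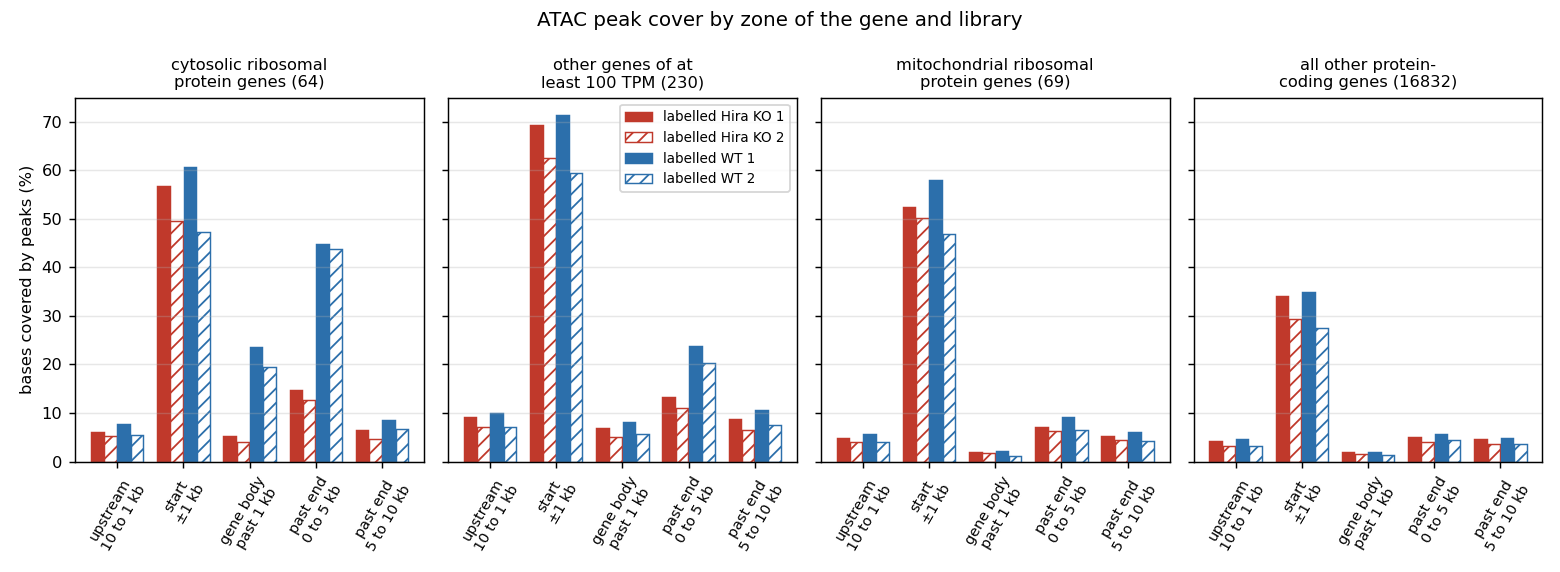
Share of bases covered by ATAC peaks (%) in 5 zones along the gene, per library, for ribosomal protein genes and 3 other sets of genes, with the number of genes in parentheses. Labelled Hira KO bars are red and labelled WT bars blue, filled for replicate 1 and hatched for replicate 2; the ribosomal protein genes differ in the gene body and in the 5 kb past the end, where cover is 14.7% and 12.7% in labelled Hira KO cells and 44.9% and 43.8% in labelled WT cells.

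Single genes show the size of this difference. Past the end of Rps4x, an X-linked small subunit gene, peaks covered 0% of the 5 kb in both labelled Hira KO libraries and 92.4% and 81.1% in labelled WT cells. There a single region of 5117 bases, chrX:102179923-102185039, was present in both labelled WT lists and in neither labelled Hira KO list. Farther past the end of Rps4x lay 2 of the 5 regions found only in the labelled Hira KO pair. These were chrX:102178516-102178878 and chrX:102175929-102176223, at 6063 and 8718 bases from the gene. Past Rps7, which is mutated in some cases of Diamond-Blackfan anaemia, cover was 0% in both labelled Hira KO libraries and 66.2% and 83.3% in labelled WT cells. Past Rpl27a, a large subunit gene, it was 4% and 4.14% in labelled Hira KO cells and 87.1% and 96.7% in labelled WT cells. The RNA of these 3 genes gave no call: the log2 fold change was 0.18 for Rps4x, 0.28 for Rps7 and 0.05 for Rpl27a, with the groups overlapping in each and a change of sign in each when 1 library was left out.

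Rpl31, Rps6, Rpl39 and Rpsa followed the same order. Past Rpl31 the cover was 0% in both labelled Hira KO libraries against 50.8% and 63.2% in labelled WT cells, where a region of 3009 bases, chr1:39371776-39374784, touched the gene end. Past Rps6, the substrate of the S6 kinases, it was 0% in both labelled Hira KO libraries and 51.5% and 27.9% in labelled WT cells. Rpl39 had 0% in both labelled Hira KO libraries and 40.8% and 39.4% in labelled WT cells, and its RNA stood at the high end of the list. Rpsa had 7.68% and 0% in labelled Hira KO cells and 68.1% and 64.6% in labelled WT cells, and with 6 it had the most regions found only in the labelled WT pair. Rpl5, the gene with the highest fold change in RNA, had 0% in both labelled Hira KO libraries and 13.9% and 16.9% in labelled WT cells, with 3 regions of the labelled WT pair in its gene body (chr5:107904818-107905387, chr5:107905752-107906336 and chr5:107907025-107907772).

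The 7 genes outside this order were of 3 kinds. Rpl10l, Rpl39l, Rps27l and Rpl36al had no peak past the end in any library. Rpl4 had 22.5% and 20.7% in labelled Hira KO cells and 24.5% and 21.9% in labelled WT cells, and Rpl13a had 53.9% and 37.9% in labelled Hira KO cells and 43.9% and 35.6% in labelled WT cells, so both overlapped. Rpl3l, a gene with almost no RNA here, was the reverse, with 28.1% and 26.8% in labelled Hira KO cells and 22.4% and 19.7% in labelled WT cells. Rpl13a nevertheless differed inside the gene, where cover more than 1 kb past the start was 17.9% and 6.78% in labelled Hira KO cells and 79.4% and 61.8% in labelled WT cells. Among the 64 genes, cover past the end had almost no rank correlation with mean TPM in any library, with Spearman's rho between -0.05 and 0.07 over 64 genes that share the same libraries.

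**Figure D5:**
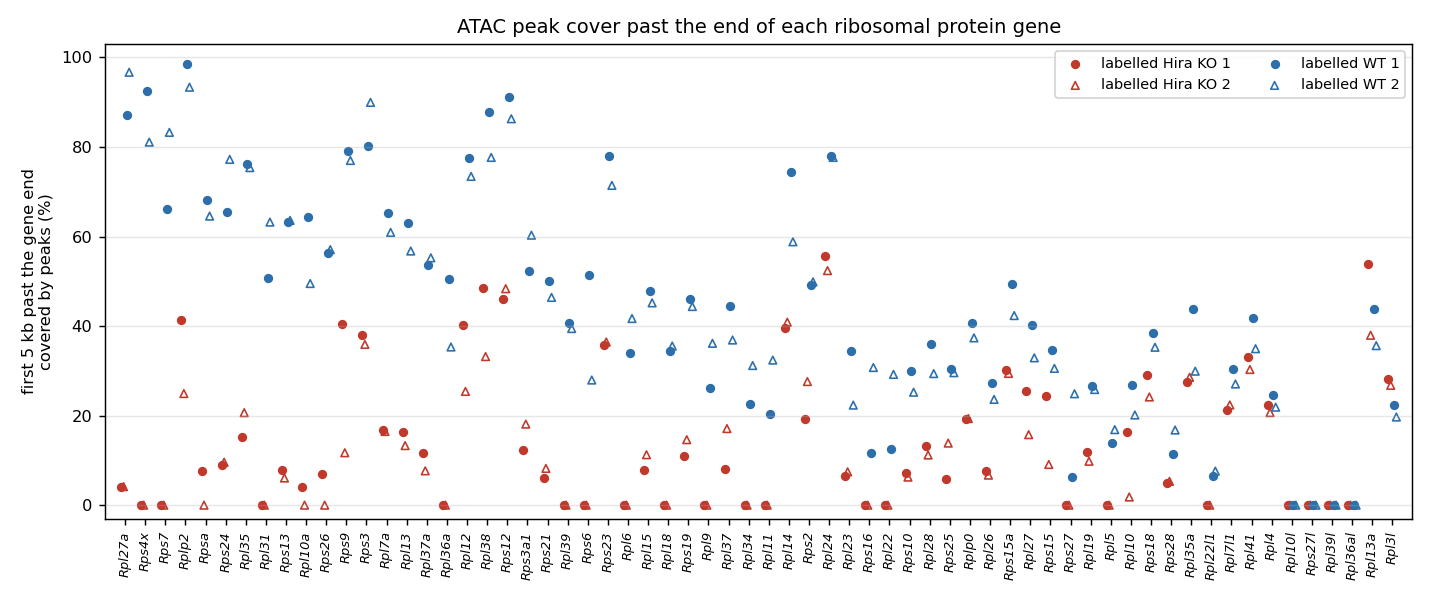
Share of the first 5 kb past the gene end covered by ATAC peaks (%) for each of the 64 ribosomal protein genes with a known strand, ordered by the mean difference, labelled Hira KO minus labelled WT. Labelled Hira KO libraries are red and labelled WT libraries blue, circles for replicate 1 and triangles for replicate 2; red points lie below blue points for 57 genes, Rpl27a and Rps4x at the left show the widest gaps, and Rpl3l at the right is the reverse.

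The same order past the gene end was found with other peak settings, chosen after seeing the data. With only peaks of an authors' fold enrichment of at least 5, cover was 11.7% and 10.7% in labelled Hira KO cells against 38.7% and 39.0% in labelled WT cells, and 51 of 64 genes were lower in both labelled Hira KO libraries. With the 60000 peaks of highest fold enrichment from each list, 55 genes were. Neighbouring genes can also place a peak there, and 31 of the 64 genes had no other protein-coding gene within 5 kb past the end. For these, cover was 11.96% and 10.4% in labelled Hira KO cells and 46.0% and 45.9% in labelled WT cells, lower in both labelled Hira KO libraries for 28 of the 31.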

How the data were processed

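RNA-seq and ATAC-seq files of LSK cells were used, with 2 libraries per group and assay. Per the file headers, the authors deposited RSEM expected counts per gene, not normalized, TPM over all genes, effective lengths and the posterior spread of each count. The deposited peak lists are in narrowPeak layout, 1 per library, with a fold enrichment (a ratio over background) and a −log10 q-value per peak. Tools listed in the submitters' processing notes include STAR 2.5.3a with RSEM 1.3.0, MACS2 2.1.1, Bowtie2 2.2.9 and Trim Galore 0.4.5, on GRCm38; their roles are not given in the sources used here. The RNA kit amplified total RNA (Ovation V2, per the labels' protocols), and the reads of near-identical copies can be divided between them in RSEM's estimates.

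The members and all gene lists were chosen with earlier results of these data known. Expected counts were rounded and fitted in edgeR 4.0.16 (R 4.3.3) with TMM scaling, its default low-count filter and a robust quasi-likelihood F test over 16258 genes, with Benjamini-Hochberg adjustment; the script was tested on simulated counts. CPM values use TMM-scaled library sizes. TPM shares use nuclear genes. A gene symbol was found for 45143 of 45706 rows. Gene positions and biotypes came from RefSeq on GRCm38.p6, matched by symbol or by a synonym of a single gene. Strands came from the RefSeq promoter windows, which covered 64 of the 84 ribosomal protein genes. Peaks of the 4 lists were merged where they overlapped by at least 1 base, and a repeated interval counted once. Alternatives were DESeq2 1.42.0, limma 3.58.1 on log2(TPM + 1) and log2(TPM + 0.1), other filters and scaling, effective-length offsets, copies added to their gene, replicate blocks and each library left out. Named genes are Hira, called genes, the 8 highest and 8 lowest fold changes, the 6 highest and lowest levels, disease genes, paralogues and the leading genes of each list; the genes named for their peaks were chosen after their values were seen. Some genes of the marker and related lists are not reported here.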

Additional observations from a re-analysis of the deposited data

How the results depend on the processing

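No ribosomal protein gene was called by edgeR with all 4 libraries (6 at an unadjusted p under 0.05). DESeq2 and the fit without a low-count filter each called 1, and leaving out 1 library gave 0 to 18 calls. The median log2 fold change was 0.03 and moved to 0.0911 with at least 10 CPM in 2 libraries, -0.0468 without TMM, -0.0643 with limma on log2(TPM + 1), -0.0647 with limma on log2(TPM + 0.1), 0.0841 with protein-coding nuclear genes only (added after seeing the data), and -0.0679 to 0.0912 with 1 library left out. The log2 ratio of the TPM share was 0.00 and ran from -0.1142 to 0.1339 with 1 library left out. The replicate numbers were not taken to pair the libraries (correlation of deviations after TMM scaling 0.02 over all genes and 0.16 over the ribosomal protein genes). In both groups, however, replicate 2 had the higher mitochondrial share of the RNA and the shorter ATAC peak list. With the replicate block edgeR called 0 ribosomal protein genes with a median of 0.03, and 0 and 0.03 with length offsets added. For 32 genes (the 8 highest and 8 lowest ribosomal protein genes, 6 others described above, Hira and 9 genes of the related lists) over 16 alternatives each, 13 of 512 fold changes on the log2 scale changed sign. Rps2 was -0.3036 and Rpl10 -0.1462 with copies added to their gene, Rps19 was -0.0287 without TMM, and Rpl27a was -0.0647 and -0.0656 with limma on log2(TPM + 1) and log2(TPM + 0.1). With 1 library left out the fold changes ran from -0.0461 to 0.8993 for Rps2, -0.0383 to 0.7965 for Rpl22l1, -0.133 to 0.2189 for Rps19, -0.0419 to 0.3488 for Rps4x, -0.0074 to 0.4972 for Rps7, -0.0631 to 0.1419 for Rpl27a and -0.0767 to 0.5084 for Rpl10. The calls of Eif3g, Bop1 and Zmat3 were lost in limma on both TPM scales and without either labelled WT replicate, those of Eif3g and Bop1 also without TMM, and that of Bop1 also with at least 10 CPM in 2 libraries. Regions found only in the labelled Hira KO pair numbered 5, and 1 in gene bodies, 1 within 2 kb, 28 within 50 kb, 3 at a fold enrichment of at least 5 and 8 to 28 with 1 library left out. Those found only in the labelled WT pair numbered 99, and 26 in gene bodies, 56 within 2 kb, 123 within 50 kb (9.13% of the regions there, against 17.5% within 10 kb), 54 at a fold enrichment of at least 5 and 112 to 194 with 1 library left out. Genes with less peak cover past the end in both labelled Hira KO libraries numbered 57 of 64, 28 of 31 without a neighbouring gene, and 57 to 58 with 1 library left out. The share of starts with a pyrimidine tract was 53.9%, 34.2% within 3 bases and 39.5% with the longer tract. Peak presence depends on the depth and threshold of each list, which hold no reads.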
